A study of Citrus reticulata with 36 samples.

Results

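Of the genes measured in ponkan ovules, 100 were picked because the balance of their transcripts moved most toward the nucellus, and away from the integument, by 32 days after pollination (DAP). They came from 28121 eligible genes among 128861 gene identifiers in the table. Ponkan (Citrus reticulata) is a mandarin-type citrus, and the series addressed seed abortion in it. The groups used here are nucellus and integument of the cultivar "Huagan No.4" (HG) and nucellus and integument of "Egan No.1" (EG), each at 18, 28 and 32 DAP, with 3 libraries in each of the 12 groups. Both tissues were cut from ovule sections by laser capture microdissection, a method that isolates chosen cells under a microscope. The submitters call the 3 libraries biological replicates but link none of them to a tree or fruit. Captured regions of a group may therefore come from one plant, and p-values over such regions are then too small. Stage numbers 1 to 3 in the table were taken as 18, 28 and 32 DAP by their order, an assignment that the labels leave unstated.

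The nucellus is the central maternal tissue of the ovule. It surrounds the embryo sac, supplies the young embryo and endosperm, and in many citrus types can also give rise to embryos of its own. The integument wraps around it and later forms the seed coat. Both are maternal tissue, so a shift in the balance between them is a shift between neighbouring cell layers of the mother plant. In captured tissue, fewer cells of a type and less RNA per cell cannot be told apart.

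The selection used the deposited read counts as CPM, each count scaled to the total of its library. A gene was eligible with a mean of at least 5 CPM over the 36 libraries and with overlapping ranges of the 18 nucellus and 18 integument libraries. Its tissue difference is log2 of mean nucellus CPM over mean integument CPM, with 1 CPM added to both, so that a positive value means higher in nucellus. Its shift is the tissue difference at 32 DAP minus that at 18 DAP, and the 100 genes with the highest smaller shift of the 2 cultivars were taken. The tissue differences at 18 and 32 DAP therefore chose the genes and are given as a description, with no test. The 28 DAP libraries entered only through the mean level and the overlap of ranges. The smaller shift was 0.88 for the genes ranked 99 and 100 and 0.87 for those ranked 101 and 102. It reached 1, a doubling of the ratio, in 59 of the 100 and 2 in only 2. The members are known only by assembly identifiers, with neither names nor sequences, so none is given a function here.

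Libraries held 12687779 to 20947644 counts. Identifiers that marked a tissue without overlap and at least 32-fold were summed in each library. The 39 for nucellus summed to 6269 to 29235 CPM in nucellus libraries and 53.7 to 534 CPM in integument libraries. The lowest nucellus library was replicate 2 of HG at 32 DAP, at 6269 CPM, where the other libraries of its group had 18005 and 29235 CPM. The 69 for integument summed to 14.8 to 53.8 CPM in nucellus libraries and 798 to 2587 CPM in integument libraries. These sets were chosen on the same libraries by this separation. Their order between the tissues was therefore fixed in advance and is no check of the labels. A set of 21 co-varying identifiers, none of them a member, took from 1.46% of a library's counts to 34.2%, the highest in replicate 1 of EG nucellus at 28 DAP. The members had a median of 12.7 CPM over all libraries, against 13.6 CPM for eligible genes. Their median length, recovered from counts and FPKM, was 1484 bases against 2008 bases, so they were shorter as a group.

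Most members were higher in integument at 18 DAP, and at 32 DAP their median tissue difference was closer to 0 in both cultivars. Their median tissue difference in HG at 18, 28 and 32 DAP was -1.67, -0.68 and -0.55. In EG it was -1.56, -0.89 and 0.02. For all eligible genes the medians lay between -0.05 and 0.17 at every stage in both cultivars. In each cultivar 90 of the 100 were lower in nucellus at 18 DAP. At 32 DAP 39 were higher in nucellus in HG and 50 in EG. Without replicate 2 of HG nucellus at 32 DAP, in which the nucellus-marking transcripts were lowest, the HG median at 32 DAP was -0.30, and 65 of the 100 genes were chosen again.

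**Figure D1:**
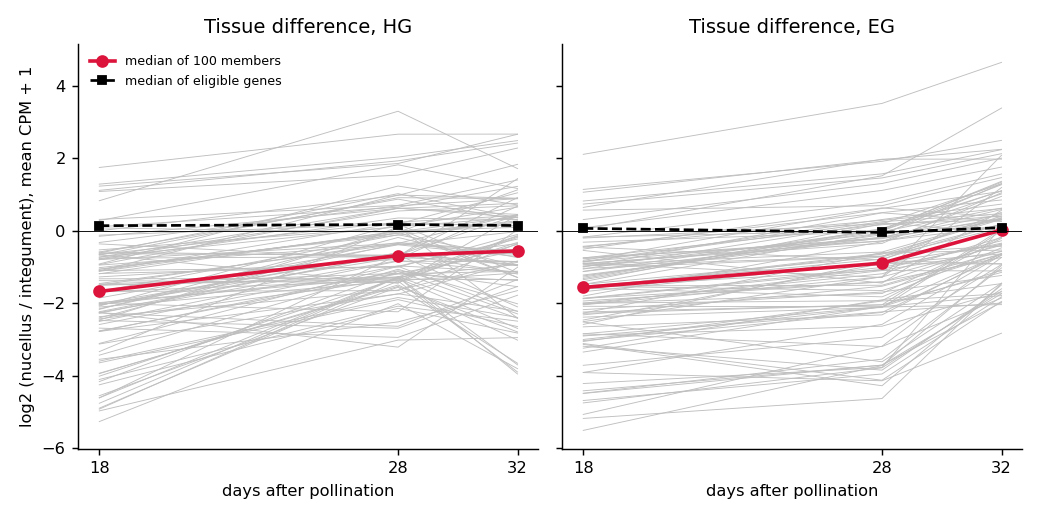
Tissue difference of each member (grey lines) against days after pollination, as log2 of nucellus over integument mean CPM + 1, in HG (left) and EG (right); red is the median of the 100 members and the dashed line the median of 28121 eligible genes. The red line runs below 0 at 18 and 28 DAP and ends at -0.55 in HG and 0.02 in EG; the 18 and 32 DAP values chose the members.

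Sorted by direction, 48 members were lower in nucellus at both 18 and 32 DAP in both cultivars, 25 were lower in nucellus at 18 DAP and higher there at 32 DAP in both, and 8 were higher in nucellus at both stages in both. The remaining 19 differed between cultivars in this pattern. The name of the list is therefore relative: for these 48 genes integument stayed the tissue with the higher level, by a smaller margin.

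On the scale of mean log2(CPM + 1), the larger part was on the integument side for most members in each cultivar. The shift itself uses log2 of mean CPM + 1, so these parts need not add up to it. Between 18 and 32 DAP the mean log2(CPM + 1) in integument was lower at 32 DAP for 89 members in HG and 83 in EG, with median differences of -0.79 in HG and -1.03 in EG. In nucellus it was higher at 32 DAP for 74 members in HG and 67 in EG, with median differences of 0.39 and 0.55. The lower integument level was the larger of the 2 parts for 65 members in HG and 60 in EG, and for 40 in both cultivars at once. The higher nucellus level was the larger part for 35 members in HG and 40 in EG, and for 15 in both. Over all eligible genes the median differences were between -0.08 and 0.06 in each tissue and cultivar.

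**Figure D2:**
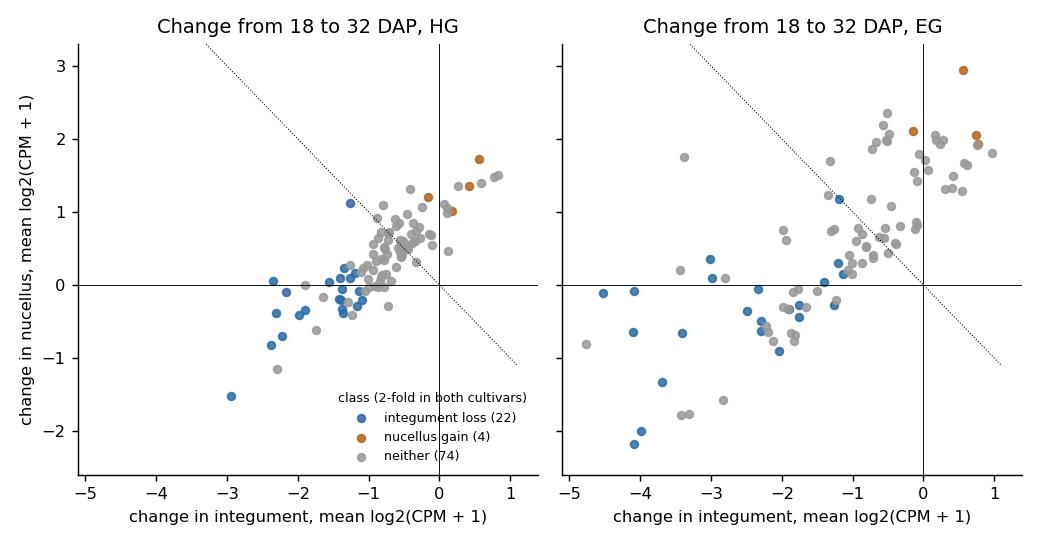
Difference of mean log2(CPM + 1) between 32 and 18 DAP in integument (horizontal) and nucellus (vertical) for each of the 100 members, in HG (left) and EG (right). Blue marks the 22 members at least 2-fold lower in integument in both cultivars and brown the 4 at least 2-fold higher in nucellus in both; on the dotted line both parts are equal, and points left of the vertical line and under the dotted line have the larger part in integument.

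With a limit of 1 on the log2 scale in both cultivars, 22 members were lower in integument at 32 DAP, 4 were higher in nucellus, 0 met both limits, and 74 reached neither limit in both cultivars. For comparison, the eligible genes held 54 of the first kind and 92 of the second, so 22 of those 54 and 4 of those 92 are members. The first kind were abundant integument transcripts early on: their median group mean in HG integument was 45.1 CPM at 18 DAP, 7.27 CPM at 28 DAP and 18.8 CPM at 32 DAP. In EG integument it was 42.4, 18.6 and 8.06 CPM. In HG nucellus the same genes stood at 6.1, 5.46 and 4.71 CPM, and in EG nucellus at 5.4, 5.74 and 5.26 CPM, close to level over the stages. The lowest integument level was at 28 DAP in HG and at 32 DAP in EG.

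The top of the list showed this pattern in its plainest form. The member with the highest smaller shift, c91848_g1 (2.51 in HG, 4.33 in EG), had 18.7, 22.3 and 50.6 CPM in HG integument at 18 DAP, 2.21, 0.2 and 0.255 CPM at 28 DAP, and 3.71, 5.11 and 5.27 CPM at 32 DAP. In EG integument it had 27.7, 6.56 and 97.8 CPM at 18 DAP, 19.8, 0.057 and 6.82 CPM at 28 DAP, and 3.33, 0 and 0 CPM at 32 DAP. In all 18 nucellus libraries it stayed between 0 and 0.603 CPM. Its shift toward nucellus was thus a lower integument level with almost no transcript in nucellus at any stage, and replicates of EG integument overlapped between 18 and 28 DAP.

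The second, c79908_g1 (2.19 in HG, 4.55 in EG), was high and low in the same libraries. It had 22, 22.1 and 56.1 CPM in HG integument at 18 DAP, 4.47, 0.749 and 0.866 CPM at 28 DAP, and 5.11, 8.01 and 5.09 CPM at 32 DAP. In EG integument it had 47.1, 11.4 and 148 CPM, then 30.8, 0.171 and 9.96 CPM, then 5.33, 0.051 and 0.1 CPM. It did not pass 1.05 CPM in any nucellus library. The HG integument libraries at 18 DAP stood above those of the later stages without overlap for both genes. In all, 3 members had a group mean under 1 CPM in every nucellus group.

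**Figure D3:**
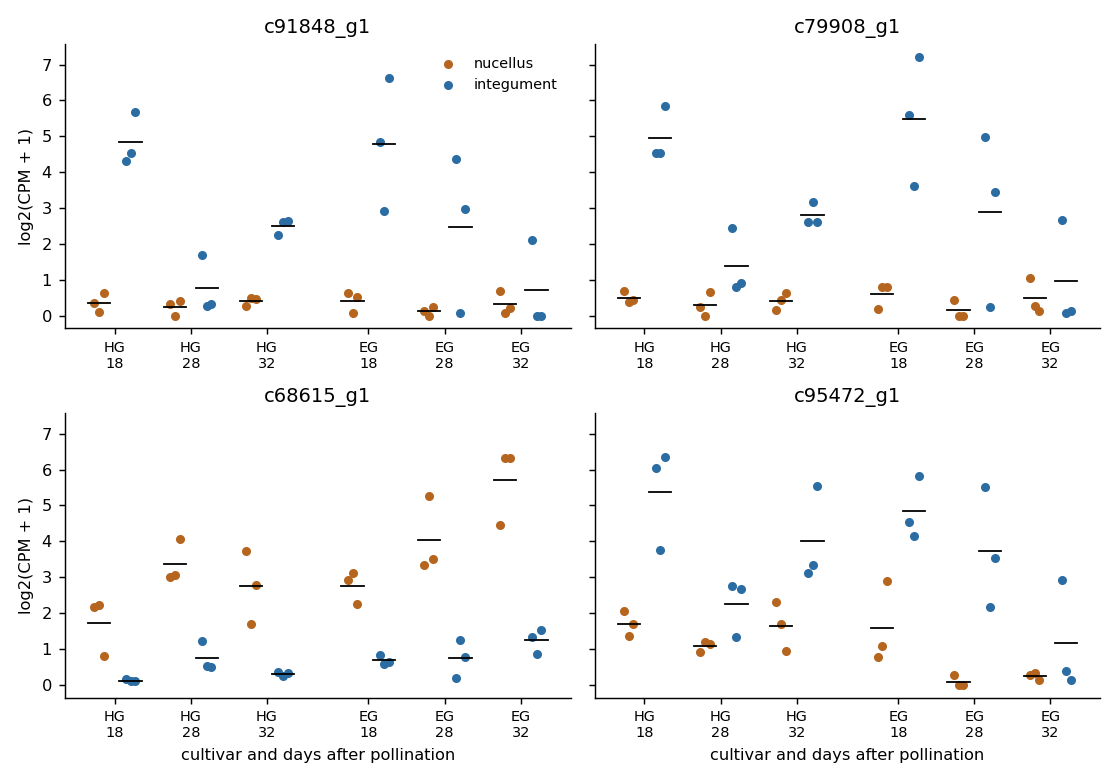
Level of 4 members as log2(CPM + 1) in each library (points; black bars are means of 3 libraries), nucellus in brown and integument in blue, by cultivar and days after pollination. In c91848_g1 and c79908_g1 the HG integument points stand highest at 18 DAP, the EG integument points of 18 and 28 DAP overlap, and the nucellus points stay near 0. c68615_g1 is higher in nucellus at every stage, and c95472_g1 is higher in integument at 28 DAP.

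A different picture was seen in the genes whose tissue order turned over. An example, chosen after its values were seen, is the member ranked 4 by the smaller shift. In HG at 18 DAP it had 6.3, 4.75 and 2.37 CPM in nucellus, against 14.1, 11.7 and 6.52 CPM in integument. At 28 DAP it had 9.33, 16.4 and 9.88 CPM in HG nucellus, against 3.19, 7.74 and 5.56 CPM in HG integument. At 32 DAP it had 12.8, 0.508 and 10.9 CPM in HG nucellus, against 4.74, 2.28 and 4.54 CPM in HG integument. The HG groups were apart at 18 and 28 DAP in opposite directions, and at 32 DAP replicate 2 of nucellus lay under all integument libraries. In EG at 18 DAP it had 11.4, 9.15 and 2.98 CPM in nucellus, against 10.4, 7.14 and 9.38 CPM in integument. At 28 DAP it had 0.049, 17.4 and 11.1 CPM in EG nucellus, against 5.73, 4 and 5.52 CPM in EG integument. At 32 DAP it had 17.5, 15.4 and 18.4 CPM in EG nucellus, against 7.48, 3.69 and 4.15 CPM in EG integument. The EG groups overlapped at 18 and 28 DAP and were apart at 32 DAP, with nucellus higher. At 28 DAP its log2 fold change of nucellus over integument was 0.86 (SE 0.55, edgeR adjusted p = 0.322, mean of both cultivars). For the 25 genes of this kind, the median tissue difference was -0.75, 0.22 and 0.43 at 18, 28 and 32 DAP in HG, and -0.85, -0.19 and 0.41 in EG.

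The member ranked 28, with the highest mean level of the list at 102 CPM, was one of the 4 that were higher in nucellus at 32 DAP. It had 106, 380 and 120 CPM in HG nucellus at 32 DAP, against 74, 46.3 and 37.1 CPM there at 18 DAP. In EG nucellus it had 318, 150 and 91.9 CPM at 32 DAP, against 36.9, 25.3 and 55.4 CPM at 18 DAP. Neither pair of groups overlapped. Integument libraries spread widely at 32 DAP, with 77.7, 191 and 57.7 CPM in HG and 194, 29.6 and 37.7 CPM in EG.

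For the contrast that chose the members, edgeR's quasi-likelihood test called none of them at an adjusted p of 0.05. This held in HG and in EG, where 0.0% of the 57344 genes tested were called, and for the mean of the cultivars, where 0.00174% were called, 1 gene, which was lower. The lowest adjusted p of a member was 0.336, for the mean of the cultivars (edgeR). At an unadjusted p under 0.05 there were 9 members in HG, 32 in EG and 64 for the mean, against 3.85%, 2.17% and 3.4% of all genes tested. These shares are set by the choice of the members and are no support for the shift. For the mean of the cultivars, DESeq2 called 0 members, with 0.00698% of genes higher and 0.0436% lower, and edgeR with paired libraries as blocks called 0 members, with 0.00174% higher and 0.0227% lower. Replicate 1 of EG nucellus at 28 DAP enters this contrast only through the shared estimate of spread and the normalization. Without it edgeR called 1 member higher, with 0.00349% of genes higher and 0.0157% lower.

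The 28 DAP libraries did not enter the shift, so the tissues were compared in them, on the mean of both cultivars. Regions that share a tree would make the p-values of these tests too small. EdgeR called 7 members higher in nucellus and 36 lower in nucellus. Over all 57344 genes tested 7.18% were called higher and 10.2% lower, and over the eligible genes 9.53% and 9.2%. The members' median log2 fold change was -0.92, against 0.06 for eligible genes, and 76 of the 100 were below 0, against 44.5% of eligible genes. At 28 DAP the list thus held many genes with more transcript in integument and about the background share of genes with more in nucellus. The rule used the 18 DAP values, where 90 of the 100 were lower in nucellus in each cultivar. Eligible genes were not matched for this, so the lean toward integument at 28 DAP is not independent of the rule.

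**Figure D4:**
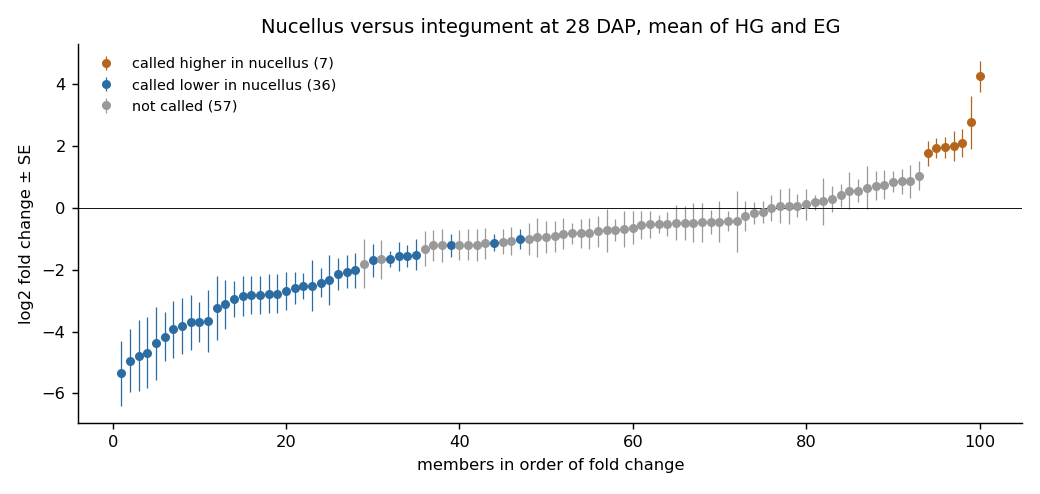
Log2 fold change of nucellus over integument at 28 DAP, mean of HG and EG, for each member in order of size, with its standard error; 7 members were called higher in nucellus, 36 lower, and 57 were not called (edgeR, adjusted p under 0.05). Values run from -5.35 to 4.26.

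The 28 DAP calls followed the direction groups. Of the 48 members lower in nucellus at both outer stages, 34 were called lower at 28 DAP and 0 higher. Of the 8 higher in nucellus at both outer stages, 7 were called higher and 0 lower. None of the 25 genes that turned over was called in either direction at 28 DAP, although 0 calls do not show equal levels. The groups were defined on 18 and 32 DAP values after these were seen, so the counts are a description.

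By the naming rule, c95472_g1 and c14112_g1 had the largest differences toward integument at 28 DAP. The first had 0.877, 1.27 and 1.18 CPM in HG nucellus, against 5.8, 1.5 and 5.35 CPM in HG integument. In EG it had 0.197, 0 and 0 CPM in nucellus, against 44.6, 3.49 and 10.7 CPM in integument (log2 fold change -4.94, SE 1.02, edgeR adjusted p = 0.000872). No tissue pair overlapped, but the size of the fold rests on very few nucellus counts in EG. By cultivar the log2 fold change was -7.91 in EG (edgeR adjusted p = 0.00236) and -1.98 in HG (edgeR adjusted p = 0.396). The gene was thus called in EG and not in HG. The second, c14112_g1, had 1.19, 0.487 and 2.15 CPM in HG nucellus, against 29.6, 6.89 and 15.6 CPM in HG integument. In EG it had 2.27, 1.5 and 1.85 CPM in nucellus, against 31, 2.91 and 114 CPM in integument (log2 fold change -4.17, SE 0.80, edgeR adjusted p = 0.000382). Its EG integument libraries differed widely while its nucellus libraries were alike. This gene was called both in EG (edgeR adjusted p = 0.0104) and in HG (edgeR adjusted p = 0.0356).

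On the nucellus side c68615_g1 stood out, a short transcript with a recovered length of 125 bases, which may be an effective length. It had 6.95, 7.31 and 15.7 CPM in HG nucellus, against 1.34, 0.449 and 0.408 CPM in HG integument, and 9.06, 37.3 and 10.3 CPM in EG nucellus, against 0.143, 1.37 and 0.704 CPM in EG integument (log2 fold change 4.26, SE 0.49, edgeR adjusted p = 1.89e-07). It was called in each cultivar alone, with adjusted p = 0.000556 in HG and 3.58e-05 in EG (edgeR). Among the nucellus libraries at 32 DAP it had 12.4, 2.26 and 5.86 CPM in HG, against 21.1, 78.4 and 79.1 CPM in EG, lower in HG without overlap. The other, c120043_g1, had 9.77, 6.29 and 7.2 CPM in HG nucellus, against 3.02, 1.4 and 1.63 CPM in HG integument. In EG it had 19.8, 8.38 and 5.83 CPM in nucellus, against 5.44, 2.34 and 1.68 CPM in integument (log2 fold change 2.00, SE 0.47, edgeR adjusted p = 0.00286). By cultivar c120043_g1 was called in EG (edgeR adjusted p = 0.0377) and not in HG (edgeR adjusted p = 0.103).

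Both leading members of the list were also called lower in nucellus at 28 DAP, c91848_g1 with a log2 fold change of -4.38 (SE 1.18, edgeR adjusted p = 0.00963) and c79908_g1 with -4.78 (SE 1.15, edgeR adjusted p = 0.00371). These calls are on the mean of both cultivars. By cultivar both genes were called in EG (edgeR adjusted p = 0.0159 and 0.0135) and neither in HG (edgeR adjusted p = 0.53 and 0.31). In both genes, replicate 2 of EG integument lay within the range of the EG nucellus libraries. The HG groups overlapped for c91848_g1 and not for c79908_g1. The call of c91848_g1 on the mean was lost without HG integument replicate 1, where its log2 fold change was -3.53 (edgeR adjusted p = 0.0912).

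Within cultivars at 28 DAP, 4 members were called higher in nucellus and 6 lower in HG, and 5 higher and 27 lower in EG (edgeR). Over all genes tested the shares were 2.73% higher and 4.51% lower in HG, and 3.43% and 5.61% in EG. Over the eligible genes they were 3.16% and 3.62% in HG, and 4.17% and 4.66% in EG. Without overlap, 13 members were higher in nucellus and 41 lower in HG, against 22.8% and 10.7% of eligible genes. In EG 4 were higher and 22 lower without overlap, against 6.55% and 8.33%. With same-numbered nucellus and integument libraries paired as a replicate block, the HG calls were 7 higher and 22 lower, and those over all genes tested were 5.68% and 7.73%. The gap between the cultivars in the number of calls was not shown to be a difference in effect. The test of the tissue difference in HG minus that in EG called 0 members and 0.0% of genes, with 7 members at an unadjusted p under 0.05, against 4.7% of genes tested and 4.32% of eligible genes; DESeq2 called 0 members.

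Single libraries carried part of these counts. In EG the number lower was 8 without integument replicate 1, against 4.56% of all genes tested, and 16 without nucellus replicate 1, against 3.51%. The number higher in EG was 3 without integument replicate 2 or 3, against 2.61% and 1.63% of genes. In HG the number lower was 2 without nucellus replicate 2 or 3, against 2.38% and 2.74% of genes. It was 3 without integument replicate 3, against 3.37%, and 11 without replicate 1 of EG nucellus, against 5.32%. The number higher in HG was 1 without integument replicate 2 or 3, against 1.76% and 1.73% of genes. The share of all genes called moved with most of these libraries as well, but not always in step. Without EG integument replicate 1 the members lower in EG went from 27 to 8, while the share of all genes went from 5.61% to 4.56%.

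Cultivars were compared in the 28 DAP libraries as well. In integument the members' median log2 fold change, HG over EG, was -0.79, against 0.03 for eligible genes. In it 76 of 100 members were lower in HG, against 46.6% of eligible genes. EdgeR called 0 members and 0.0% of genes; 26 members had an unadjusted p under 0.05, against 6.7% of all genes tested and 7.15% of eligible genes. That difference rested largely on replicate 1 of EG integument. Without it the median was -0.31 and 41 members were higher in HG. Then 4 members had an unadjusted p under 0.05 (edgeR), against 2356 of 57344 genes tested. That number was 48 without EG integument replicate 2, against 6406 genes. It was 14 and 12 without HG integument replicates 2 and 3, against 2785 and 3146 genes. In nucellus the median was -0.34, against 0.05 for eligible genes, and 73 of 100 were lower in HG, against 46.1% of eligible genes. EdgeR called 0 members and 0.0% of genes there. At an unadjusted p under 0.05 there were 11 members, against 12.4% of genes tested and 14.4% of eligible genes. DESeq2 called 0 members in both tissues, while over the genes it tested it called 0.262% higher and 0.811% lower in HG nucellus, and 0.00619% higher and 0.0599% lower in HG integument. In nucellus the direction of the members depended on the processing: limma on log2(FPKM + 0.1) gave a median of 0.21 with 60 members above 0, against 0.28 over all genes tested, and the replicate block gave -0.12 with 40 above 0, against 0.02 over all genes tested. With 1 library left out in turn, 2 to 17 members had an unadjusted p under 0.05 in nucellus, and 2 to 18 for the tissue difference in HG minus that in EG. Over the 57344 genes tested, the same edgeR runs had 3477 to 10773 and 1520 to 4934 genes at that limit.

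The members varied between libraries of the same group in both tissues. As the median of log2(CPM + 1) over the 100 genes, HG integument stood at 4.30, 4.33 and 4.95 at 18 DAP, at 3.52, 3.03 and 3.19 at 28 DAP, and at 3.50, 3.40 and 4.07 at 32 DAP. EG integument stood at 4.50, 3.87 and 4.67 at 18 DAP, 4.39, 3.11 and 3.89 at 28 DAP, and 3.74, 2.96 and 2.77 at 32 DAP. In both cultivars each 32 DAP library was under each 18 DAP library. At 28 DAP, EG integument replicates 1 and 3 lay within the 18 DAP range of EG integument and replicate 2 within its 32 DAP range.

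**Figure D5:**
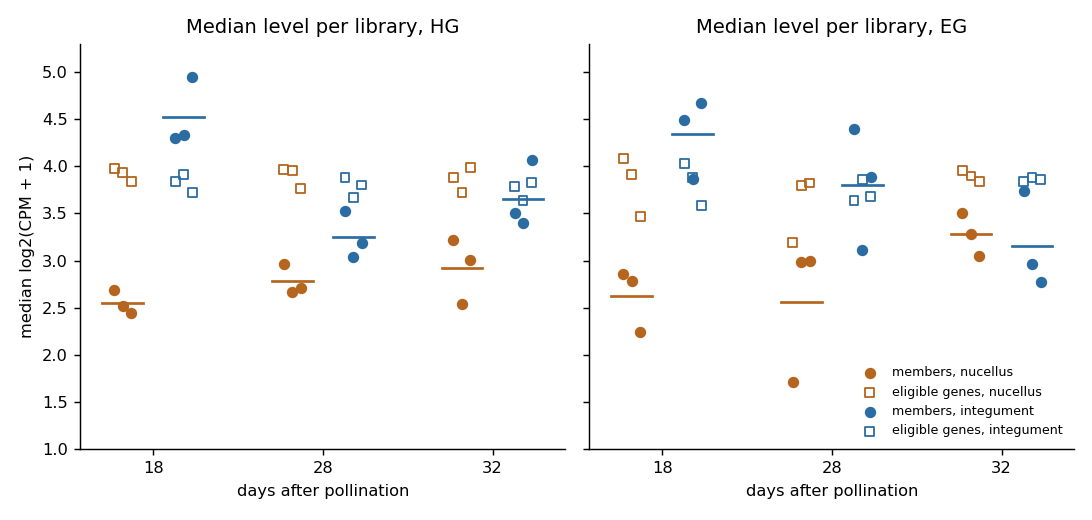
Median log2(CPM + 1) over the 100 members in each library (filled circles; bars are means of 3 libraries) and over the eligible genes (open squares), nucellus in brown and integument in blue, by days after pollination in HG (left) and EG (right). The integument circles are highest at 18 DAP, and the eligible genes show no such order; the 18 and 32 DAP libraries chose the members.

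In nucellus the same medians were 2.69, 2.52 and 2.44 at 18 DAP, 2.97, 2.67 and 2.71 at 28 DAP, and 3.22, 2.54 and 3.0 at 32 DAP in HG. In EG nucellus they were 2.85, 2.78 and 2.24 at 18 DAP, 1.71, 2.98 and 3.0 at 28 DAP, and 3.50, 3.28 and 3.05 at 32 DAP. The nucellus groups overlapped between 18 and 32 DAP in HG and did not in EG. The low library was replicate 1 of EG nucellus at 28 DAP, where 8 members had 0 counts and the median of the eligible genes was also lowest, at 3.19.

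Replicate 1 of EG integument was the highest of its group for 58 of the 100 members at 28 DAP, against 26.1% of eligible genes, and for 78 at 32 DAP, against 39.3%. At 18 DAP replicate 3 was the highest in 71 members in HG integument, against 29.2% of eligible genes, and in 55 in EG integument, against 17.0%. The co-varying set took 18.7% of counts in replicate 1 of EG integument at 28 DAP and 17.3% in replicate 3 of EG integument at 18 DAP, but 2.25% in replicate 3 of HG integument at 18 DAP. The integument-marking transcripts summed to 1394, 798 and 1424 CPM in HG integument at 32 DAP, against 1702, 1776 and 2169 CPM at 18 DAP, without overlap. In EG they summed to 2587, 1580 and 1605 CPM at 32 DAP, against 2100, 1625 and 1193 CPM at 18 DAP, with overlap. The nucellus-marking transcripts were highest among integument libraries in replicate 3 of HG at 32 DAP, at 534 CPM. The part of these differences in the members' shift was not tested.

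The 100 genes with the opposite shift, toward integument, started from the other side. Their median tissue difference was 1.37, 0.56 and -0.27 at 18, 28 and 32 DAP in HG, and 1.20, 0.07 and -0.24 in EG. Between 18 and 32 DAP their median difference was -0.67 in nucellus and 0.70 in integument in HG, and -0.83 and 0.43 in EG. In both lists the median difference was negative in the tissue that was higher at 18 DAP. In HG it was about as large in size in either tissue for the opposite list, and larger in integument for the members. These values chose both lists and are a description.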

How the data were processed

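Laser-captured nucellus and integument of ponkan ovules were profiled by RNA sequencing in 36 libraries. Per the labels' protocols, cDNA was made with random primers and amplified before library preparation. The count table deposited by the authors holds whole numbers per gene identifier, which entered all tests unchanged. FPKM values, scaled to length and depth by the authors, gave gene lengths and 1 alternative. The submitters' processing notes name RSEM, Bowtie2, cutadapt and DESeq without roles; the build and annotation were not given in the sources used here. Each column's cultivar, tissue, stage and replicate number assigned it to a sample.

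Members and lists were chosen with earlier results of these data known. Levels are library-size CPM. Tests used edgeR 4.0.16 (R 4.3.3; TMM, filterByExpr with a minimum count of 10 and total of 15, 57344 genes, 12 group means, robust quasi-likelihood F test, 24 residual degrees of freedom, Benjamini-Hochberg over all genes, threshold 0.05); all 100 members passed the filter. Standard errors were computed as the size of the fold change over the square root of F. The main tests left the libraries unpaired, since the labels do not say that replicate numbers link the tissues. Only the replicate-block alternative paired same-numbered nucellus and integument libraries, whose deviations from group means correlated at 0.124 to 0.723 in all 18 pairs. Named identifiers were the 2 highest by smaller shift and, at 28 DAP, the 2 called members with the largest difference in each direction, without overlap and with at least 5 CPM. DESeq2 1.42.0 and limma 3.58.1 were alternatives.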

Additional observations from a re-analysis of the deposited data

How the results depend on the processing

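Membership depended on the limits: 58 and 63 of the 100 stayed with a minimum mean of 1 and 10 CPM, 73 to 92 with other pseudocounts, TMM, FPKM or no overlap rule, and 54 to 100 with 1 library left out, the fewest without HG integument replicate 2 at 32 DAP. A class limit of 0.5 on the log2 scale gave 48 integument decreases, 19 nucellus increases, 5 with both and 28 with neither; logs of group means, an alternative added after seeing the data, gave 7 nucellus increases.

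For the tissues at 28 DAP on the mean of both cultivars, every alternative run stayed within 1.5 times of the 7 higher and 36 lower, at 6 to 8 and 27 to 41 with 1 library left out. The shares of all genes tested in those runs were 5.29% to 7.93% higher and 8.89% to 10.3% lower. In HG the number lower was 14 by DESeq2, against 6.25% of genes tested, and 2 with the 28 DAP libraries alone, against 2.64%. With 1 library left out it was 2 to 11, against 2.38% to 5.32%. The number higher in HG was then 1 to 5, against 1.5% to 3.88%. In EG the number lower was 13 with the 28 DAP libraries alone, against 3.19% of genes tested. It was 8 to 32 with 1 library left out, against 3.51% to 5.79%. The number higher in EG was 3 with no filter (1.36% of genes tested) and 3 with the 28 DAP libraries alone (1.22%). It was 2 by limma on FPKM (1.76%), and 3 to 5 with 1 library left out (1.59% to 5.21%). The median tissue difference ranged from -0.90 to -0.49 in HG and from -1.35 to -0.48 in EG. The cause of these differences was not tested.

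Pairing the tissues as a replicate block gave 9 higher and 43 lower for the mean, 7 and 31 in EG and 7 and 22 in HG. Over all genes tested the same fit called 10.4% higher and 13.5% lower for the mean, 5.3% and 8.46% in EG, and 5.68% and 7.73% in HG. The cultivar comparisons gave 0 members with a replicate block across cultivars, whose same-numbered libraries did not all deviate together (correlations -0.327 to 0.645, 8 of 18 over 0.1, 5 of these at 18 DAP). Amplified reads are not independent molecules, so depth alone understates the error of low counts.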
